A study of Homo sapiens with 3 samples.

Results

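A pair of miR-181a cultures of one cell line were set against each other here, pool 2 against pool 1, to show how far a pair of cultures carrying the same construct differed in messenger RNA. The cells were A2780, a human ovarian cancer line grown in culture. Pool 1 and pool 2 both expressed exogenous miR-181a, and a control culture carried the empty pBABE retroviral vector, with 1 library in each of the 3 groups. The labels describe these cells as polyclonal pools in the extraction protocol and as clones in the design, name no promoter for the insert, and do not say whether the pools came from separate infections. No treatment separated the groups. Genes were chosen by coverage alone: a table row, which is 1 RefSeq transcript, was compared when the mean of its 2 pool values was at least 1, and the vector value played no part. This kept 17759 of 29156 rows, and 11135 of 18877 genes after the row with the highest pool mean was taken for each gene. Of the compared rows, 183 have a blank vector value, and their median difference of 0.01 was as near 0 as that of the other rows, also 0.01.

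MicroRNAs guide Argonaute proteins to messenger RNAs whose 3 prime UTR pairs with the seed near the 5 prime end of the microRNA, and the bound messenger RNA is translated less and decays sooner. miR-181a is made from hairpins on chromosomes 1 and 9 and is known for roles in lymphocyte development, in TGF-beta signalling and in ovarian carcinoma, where SMAD7, an inhibitor of that signalling, is a reported target. Cells with stably inserted constructs can differ in where and how often the insert landed, and cultures of one line can drift apart with passage.

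The microRNA and some of its sites are printed here because the pools share the microRNA and the sites show what it could pair with among the genes described below. The first line is the mature strand from RefSeq (GRCh38.p14), with its seed, bases 2 to 8, in capitals. The others are 22-base windows of 3 prime UTRs on GRCh37, on the gene's strand, with the 8 bases that match the seed and end in an A in capitals.
hsa-miR-181a-5p: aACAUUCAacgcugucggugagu
EED, chr11:85989682-85989703, plus strand: caggctgagcTGAATGTAgtga
CCNG1, chr5:162871686-162871707, plus strand: tggcagttagTGAATGTAagaa
KLF6, chr10:3818779-3818800, minus strand: tatttctgtaTGAATGTAtttt
SPRY4, chr5:141691746-141691767, minus strand: ttatatgaatTGAATGTAtcag
Shared 3 prime UTR of the protocadherin alpha genes, chr5:140391035-140391056, plus strand: gctttattgtTGAATGTAattc

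The values are coverage, the median over sliding windows of 50 bp along a transcript, so they do not grow with transcript length and can be set beside each other between genes. No counts are given with them, so depth is unknown, and a value of 0 does not exclude reads in the minority of windows. Coverage summed to 916314 in pool 1, 726165 in pool 2 and 798228 in the vector library. The shares of rows at 0 in pool 1 and in pool 2 were 32.3% and 32.2%. In the 3457 rows with a mean above 50, pool 2 stood at a median of 79.4% of pool 1. This offset, -0.33 on the scale of log2(coverage + 1), was taken out, and every difference below is what remained, called the centred difference, with positive values higher in pool 2. A pseudocount of 1 understates the difference of low genes, and taking a fixed offset out after it lifts them: genes with a mean of 1 to 3 had a median of 0.14, against -0.01 for those of 10 to 30. With 1 library a side there is no replicate error, test or p-value. The yardstick used in its place is the spread of genes of like coverage and, where a gene has several rows, their agreement. Because the cells are bulk cultures, fewer cells that express a gene and less RNA per cell cannot be told apart.

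The pools were close to each other. Of the 11135 genes, 10227 (91.8%) lay within 0.5 log2 unit of 0, a fold of 1.41 on coverage + 1, and 5766 were above 0 and 5369 below. Across genes, which are not independent replicates, log2(coverage + 1) of the pools had a Pearson r of 0.985 and a Spearman rho of 0.985. At 1 log2 unit, a fold of 2, 91 rows were higher in pool 2 (0.512% of rows) and 29 lower (0.163%). By gene, 47 were higher (0.422%) and 20 lower (0.18%). At 0.5 unit, 473 genes were higher (4.25%) and 435 lower (3.91%). The balance of higher to lower at 1 unit depended on the scaling: 39 to 32 genes and 77 to 43 rows with pool 2 divided by the offset before the logarithm, 39 to 32 and 77 to 44 with equal sums, 35 to 30 and 69 to 43 after quantile normalization, and 20 to 136 and 41 to 208 with no centring, which moves every gene by the same -0.33. Just inside the filter were a row of HIST2H2BF, with 0.5 in pool 1 and 1.5 in pool 2, and PTPRH, with 0.965 and 1.04. Just outside it were SLC2A12, with 1.25 and 0.751, and a row of GAS6, with 0.947 and 1.05.

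Spread narrowed as coverage rose. The 16th and 84th percentiles lay 0.37 either side of their midpoint in the 1098 genes with a mean of 1 to 3, and 0.31 either side in the 2711 genes of 3 to 10. They lay 0.24 either side in the 3789 genes of 10 to 30 and 0.22 in the 2592 of 30 to 100. They lay 0.21 either side in the 708 genes of 100 to 300 and 0.18 in the 237 genes above 300. Of the 47 genes at least 1 unit higher in pool 2, 42 had a mean under 10 and 31 a mean under 3. Of the 20 lower genes, 16 had a mean under 10. Among the 7326 genes with a mean of at least 10, 5 were higher and 4 lower by 1 unit, and no gene with a mean above 100 was.

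**Figure D1:**
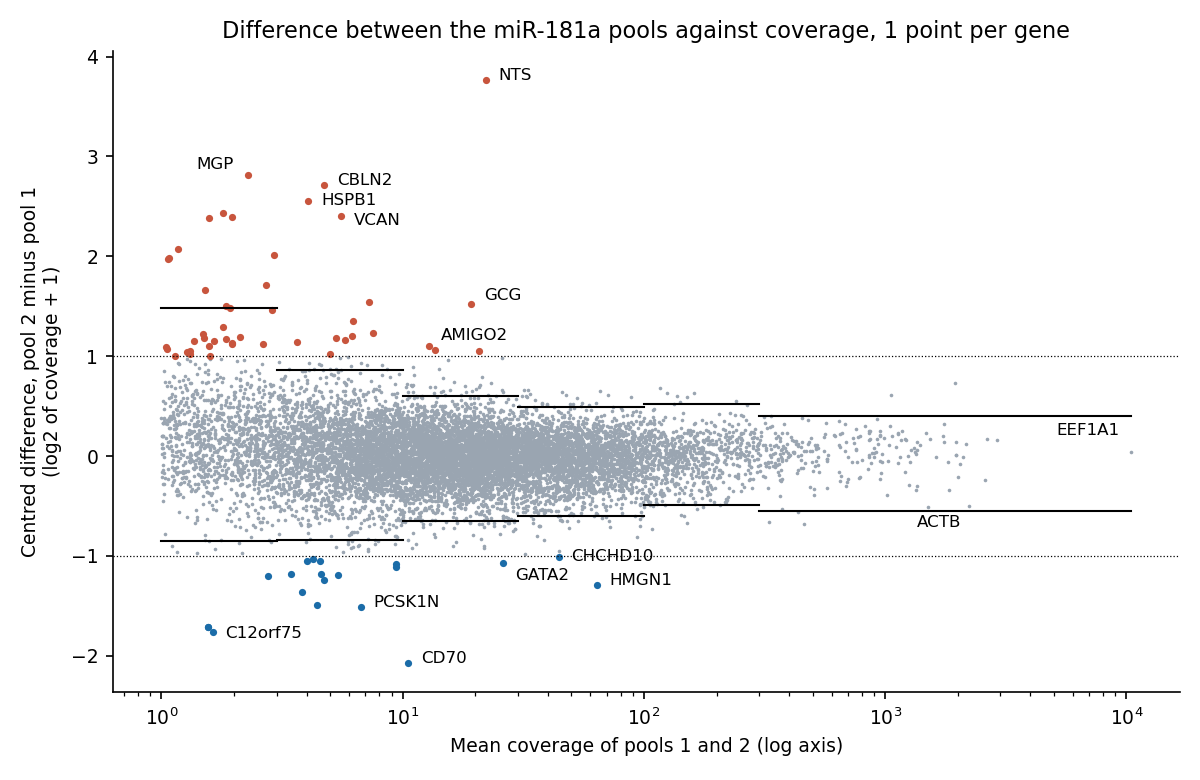
Each point is 1 of 11135 genes, with the mean coverage of the pools on a log axis and the centred difference on the vertical axis, on which positive is higher in pool 2. Black bars mark the 1st and 99th percentile in each coverage band, dotted lines mark 1 log2 unit, and the 47 genes above and 20 below it, most of them under a mean of 10, are in red and blue.

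Rows of the same gene gave a check on the row used, though they share exons and so reads. Of 3215 genes with at least 2 rows of different value, 2585 (80.4%) had all rows on the same side of 0. All 17 such genes at least 1 unit higher in pool 2 had every row on that side, and in 13 every row passed 1 unit. All 4 such genes at least 1 unit lower had every row below 0, but only HES6 had every row past 1 unit, at -1.08 and -1.03. After an adjustment for GC content described below, the used row of HES6 stood at -0.79.

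NTS, which encodes neurotensin, a peptide of gut and brain that also stimulates growth of some tumour cells, stood farthest apart. Its coverage (chromosome 12, 86268073 to 86276770 on GRCh37) was 2.93 in pool 1 and 41.5 in pool 2, with 19.8 in the vector library. The centred difference was 3.77, a fold of 13.6 on coverage + 1, and no other gene of the 3789 in its band was as high. The deposited vector value lay between those of the pools.

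GCG, the precursor of glucagon and of the incretin GLP-1, had 11.4 in pool 1 and 27.2 in pool 2, a difference of 1.52, and 4.98 in the vector library. AMIGO2, an adhesion protein with leucine-rich repeats, had 9.23 and 16.4, a difference of 1.10, with its other row at 0.77. NDUFAF1, an assembly factor of respiratory complex I, had 10.0 and 17.2, a difference of 1.06. C19orf42 had 15.4 and 26.0, a difference of 1.05. These 4 and NTS are the genes with a mean of at least 10 that were 1 unit higher in pool 2. The last 3 lay close beyond that limit, and after GC adjustment AMIGO2 stood at 1.03, NDUFAF1 at 0.99 and C19orf42 at 0.98.

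Next in order among such genes were PLK2, GTF2H5, MEOX1, MEIS3, ARHGAP28, EED and OCLN, with differences from 0.98 down to 0.78. PLK2, a Polo-like kinase that p53 induces, had 19.9 in pool 1 and 31.7 in pool 2. GTF2H5, a small subunit of the repair and transcription factor TFIIH, had 11.9 and 18.9. The homeobox genes MEOX1 and MEIS3 had 8.75 and 13.4, and 11.3 and 16.9, with MEIS3 at 1.16 after GC adjustment. The vector value of the used row was 31.7 for MEOX1, whose other rows were at 21.7 and 12.7 there, and 64.1 for MEIS3. EED, a core subunit of the Polycomb repressive complex that methylates histone H3, had 17.8 and 24.9, and its 3 prime UTR of 285 bases holds the 8-base match printed above. OCLN, the tight junction protein occludin, had 12.3 and 17.1. Of these 7 genes, the 4 with several rows had every row higher in pool 2, the lowest being a row of MEOX1 at 0.72.

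At low coverage, 5 further genes higher in pool 2 were chosen for description after their values were seen. CBLN2, a secreted organizer of synapses, had 0.839 in pool 1 and 8.62 in pool 2, a difference of 2.72, beside 256 in the vector library. HSPB1, the small heat shock protein HSP27, had 0.789 and 7.35, a difference of 2.55 (GC-adjusted 2.84), beside 31.8. VCAN, the matrix proteoglycan versican, had 1.53 and 9.61, a difference of 2.40, and its other rows reached 2.48. ANXA1, the phospholipid-binding annexin A1, had 3.99 and 10.5, a difference of 1.54. FABP7, a fatty acid binding protein of neural progenitors, had 3.77 and 8.71, a difference of 1.36. KRT18, an epithelial keratin with many processed pseudogenes, had 2.38 and 4.91, and reads could be split between it and its copies.

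The highest values in pool 2 among genes listed at 0 in pool 1 were those of MGP, EPHA7 and NKX2-1. MGP, matrix Gla protein, an inhibitor of calcification, stood at 4.59 in pool 2. EPHA7, an ephrin receptor, stood at 3.15, and NKX2-1, a transcription factor of lung and thyroid, at 2.35 with both of its rows higher. No fold is given against a value of 0. In the other direction, C12orf75 stood at 3.26, HIST1H2BO at 3.13 and DNAL1, a dynein light chain, at 3.12 in pool 1, and all 3 were listed at 0 in pool 2. Over the whole table, 508 rows were at 0 in pool 1 only, 460 in pool 2 only, and 8920 in both. None of the first 2 sets exceeded 4.70, so no transcript of more than low coverage was present in one pool and at 0 in the other.

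CD70, the ligand of CD27, a receptor of the tumour necrosis factor receptor family, and a surface antigen of many carcinomas, was the lowest in pool 2. Its coverage (chromosome 19, 6583194 to 6604114) was 18.4 in pool 1 and 2.67 in pool 2, beside 56.7 in the vector library. The centred difference was -2.07, and no other gene of its band was as low. The deposited vector value lay above those of both pools.

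HMGN1, a nucleosome-binding protein, had 96.9 in pool 1 and 30.9 in pool 2, a difference of -1.29 and the lowest in its band. It has many processed pseudogenes, so its value could be split between copies. GATA2, a zinc finger transcription factor of blood, endothelial and neural progenitors, had 38.3 and 13.8, a difference of -1.08 with its rows from -1.08 to -0.93, and 10.2 in the vector library. CHCHD10, a mitochondrial protein of the cristae junctions, had 63.9 and 24.7, a difference of -1.01. These 3 and CD70 are the genes with a mean of at least 10 that were 1 unit lower. After GC adjustment GATA2 stood at -0.96 and CHCHD10 at -0.72.

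The next 8 lowest ran from -0.98 to -0.86. PRRX1, a homeobox factor of limb and other mesenchyme, had 46.4 in pool 1 and 18.1 in pool 2, with both rows at or below -0.98. YTHDF1, a reader of N6-methyladenosine, had 31.2 and 12.5. POU3F3, a POU-domain factor of the developing brain and kidney, had 16.3 and 6.46. LGALS3BP, a secreted glycoprotein that binds galectin 3, had 23.7 and 9.76, and the RNA helicase DDX51 had 30.9 and 12.6. SCAND1 (-0.95), C13orf37 (-0.92) and UNC119 (-0.90) complete the set. After GC adjustment SCAND1 and POU3F3 both stood at -0.66. At lower coverage, HES6, a basic helix-loop-helix factor of neural differentiation, had 14.2 and 4.69, a difference of -1.08 (GC-adjusted -0.79). ONECUT1, a liver and pancreas transcription factor, had 14.2 and 4.58, a difference of -1.11, and PCSK1N, an inhibitor of the prohormone convertase PCSK1, had 11.1 and 2.37, a difference of -1.51 (GC-adjusted -1.22). These 3 were chosen after their values were seen.

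**Figure D2:**
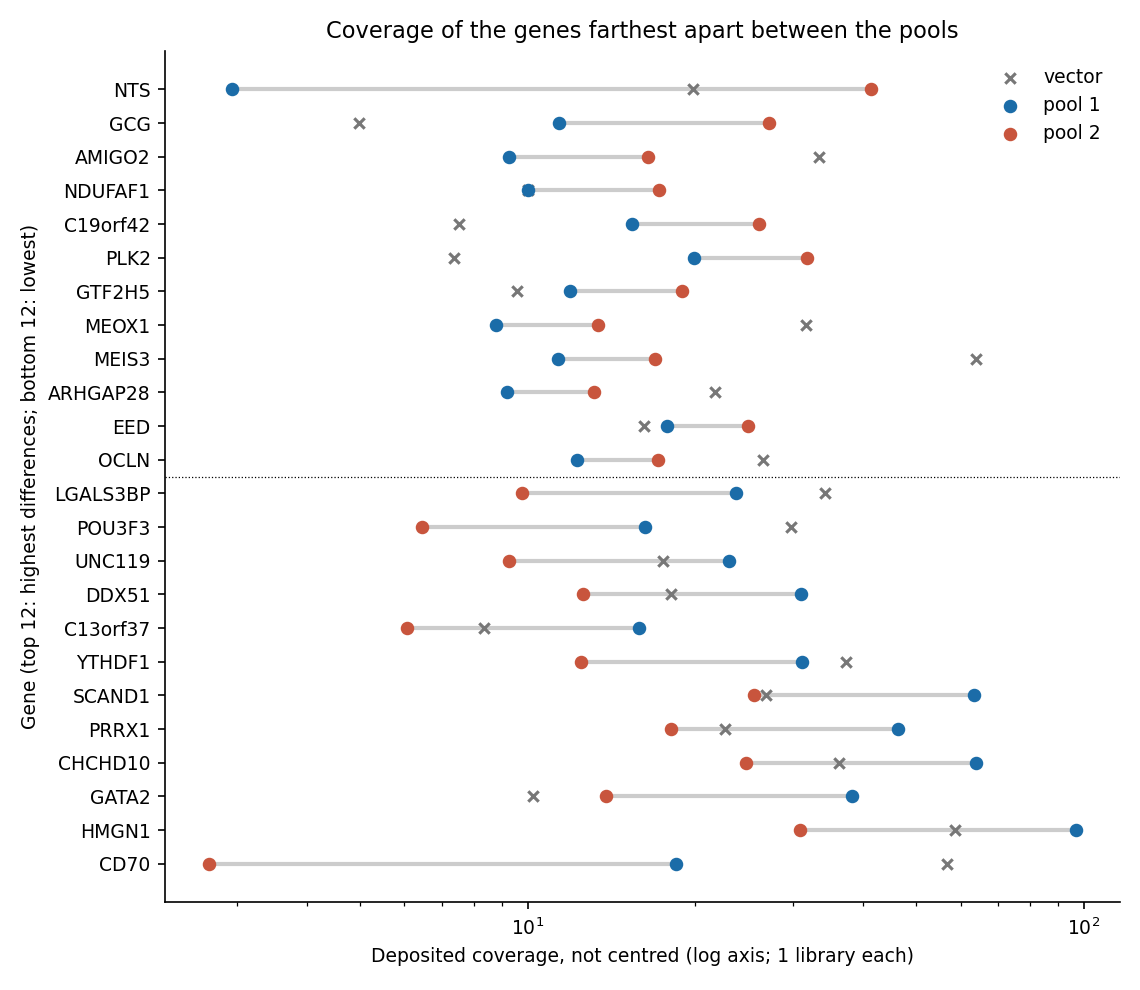
Deposited coverage on a log axis in pool 1 (blue), pool 2 (red) and the vector library (cross), 1 library each, for the 12 genes with the highest and the 12 with the lowest centred difference among genes with a mean of at least 10. NTS, from 2.93 to 41.5, and CD70, from 18.4 to 2.67, have the widest gaps, and the vector value lies inside the gap in some genes and outside it in others.

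The deposited vector value lay above, below or between the pool values of these genes. These places were not set beside their shares over all genes, so they are not read as a trait of these genes. Of the 47 genes higher in pool 2, the vector value was above both pools in 26, below both in 11 and between them in 10. Of the 20 lower genes it was above both in 8, below both in 1 and between them in 11. The vector library was not assumed to be on the pools' scale, and 5549 rows at 0 in both pools have a vector value above 0. Its values are therefore given as deposited and no difference was taken from them.

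Of the 5 genes of highest coverage, 4 lay within 0.24 of 0. EEF1A1, the elongation factor that brings transfer RNA to the ribosome, had the highest coverage, 11515 in pool 1 and 9418 in pool 2, a difference of 0.04. GAPDH, a glycolytic enzyme, had 3081 and 2735 (0.16), and the ribosomal protein genes RPLP0 and RPS2 were at 0.17 and -0.24. ACTB, which encodes beta-actin, was lower in pool 2, with 2838 and 1594, a difference of -0.50. Only 2.11% of the genes of its band were lower, so GAPDH and ACTB, both often used as references, lay on opposite sides of 0.

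GC content of the transcript went with the difference. Over 7254 genes with a mean of at least 10 the Spearman rho was -0.41 and the Pearson r -0.41, given as descriptions across genes that share the same pair of libraries, while transcript length gave a rho of -0.01. The genes were split into 10 groups of equal size by GC. In the lowest group the median difference was 0.09, with 15 of 726 genes higher by 0.5 and 10 lower. In the highest group it was -0.26, with 1 higher and 98 lower. An adjusted difference, the centred difference minus the median of its GC bin (20 bins), left a rho of 0.01. The bins were set on genes with a mean of at least 10 and applied to all 10964 genes with a GC content. At 0.5 unit, 480 of those 10964 were then higher and 278 lower, against 473 and 435 of all 11135 genes before adjustment. The part of GC in any single gene's difference was not tested, and adjusted values are given beside the differences they move most.

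**Figure D3:**
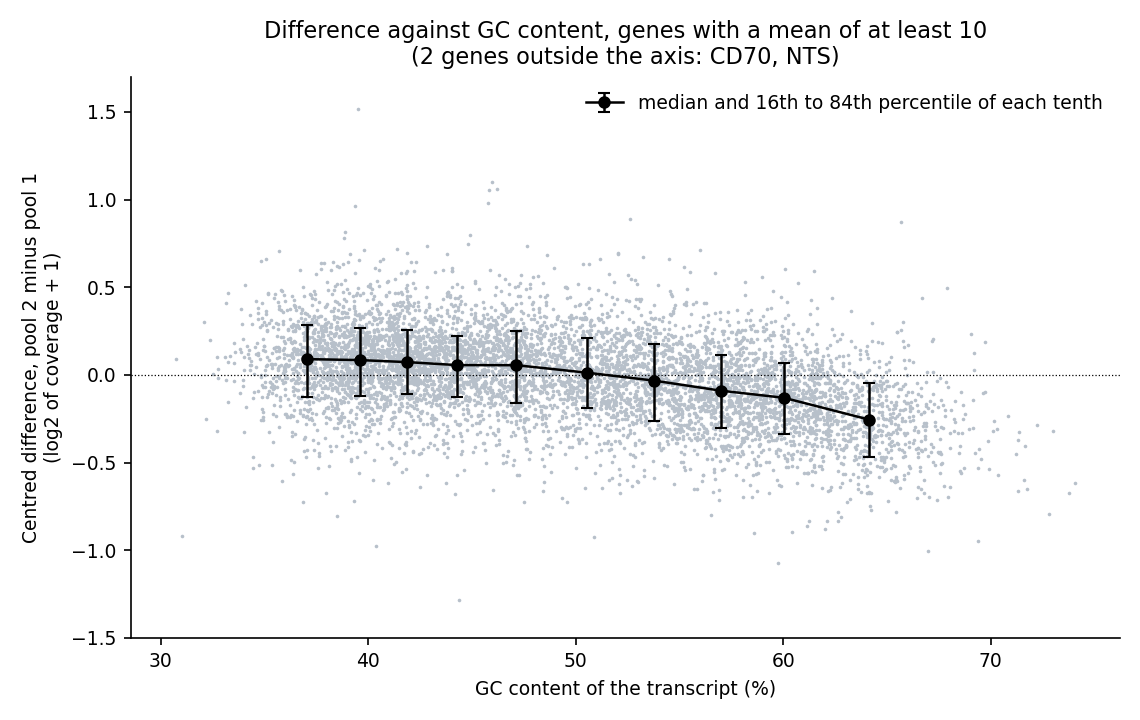
Centred difference against GC content of the transcript in percent, for genes with a mean of at least 10, 1 grey point each. Black points are the medians of 10 equal groups of genes by GC, with bars from the 16th to the 84th percentile, and the medians go from 0.09 at the lowest GC to -0.26 at the highest.

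Markers of the labelled tissue were largely absent from both pools. Of 18 ovarian carcinoma lineage markers, 9 were at 0 in both pools, among them PAX8, WT1, MUC16, ESR1 and SOX17, and 5 could be compared. Of 39 epithelial markers, 24 were at 0 in both, among them CDH1, EPCAM, KRT7, KRT19 and CLDN7. The 12 compared had a median of 0.11, or -0.23 with no centring, with OCLN, KRT18 and PKP2 higher by 0.5 and none lower. Over all genes the median was 0.01, or -0.32 with no centring, with 4.25% higher by 0.5 and 3.91% lower. Markers of other cells were also low: 10 of 14 endothelial and 14 of 20 immune markers were at 0 in both pools. Summed over a list, immune markers came to 5.43 in pool 1 and 5.89 in pool 2 among the 3 compared, and PTPRC and CD3D were at 0 in both. Fibroblast markers were higher: 4 of 16 were at 0 in both pools, and the 11 compared had a median coverage of 59.0. Those 11 summed to 2719 in pool 1 and 2300 in pool 2, with a median difference of -0.01. LUM, a collagen-binding proteoglycan, had 232 and 245, and THY1, a surface marker of mesenchymal and neural cells, had 26.7 and 13.8.

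Genes of the HOX clusters were lower in pool 2 almost throughout. HOX genes encode the homeobox factors that set position along the body axis, and in these cells the coverage came from the HOXB and HOXC clusters, with 21 of 39 genes at 0 in both pools. Of 15 compared, 14 were below 0, 2 of them by 0.5, with a median of -0.31 (GC-adjusted -0.26) against 0.01 over all genes. Among all 11135 genes, 5369 were below 0 and 3.91% lower by 0.5. HOXB9 had 213 in pool 1 and 117 in pool 2, a difference of -0.53, and HOXC10 had 83.9 and 44.2, a difference of -0.58. HOXB6 was at -0.38 and HOXB4 at -0.41. Only HOXB2, at 0.08, was above 0. The HOX median was below 0 under every scaling, filter and pseudocount tried, from -0.64 with no centring to -0.16 with a pseudocount of 10. Over all genes these settings gave -0.32 and 0.10. Neighbouring HOX genes share a locus and some transcripts, so the 15 are not 15 separate observations.

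Interferon response genes were also lower on balance. Of 27 compared, 18 were below 0 and 6 lower by 0.5, none higher by 0.5, with a median of -0.25 (GC-adjusted -0.26). Among all 11135 genes, 5369 were below 0, 3.91% lower by 0.5 and 4.25% higher, with a median of 0.01. HLA-B, a class I antigen-presenting molecule, had 7.58 in pool 1 and 1.89 in pool 2, a difference of -1.24. Its close paralog HLA-C had 176 and 101, a difference of -0.45, and reads could be split between them. IRF9, the DNA-binding subunit of the interferon-induced factor ISGF3, had 24.5 and 12.2, a difference of -0.62, and IFIT1, which binds foreign RNA ends, had 42.8 and 22.9, a difference of -0.54. Not all members went that way: STAT2 was at 0.30 and BST2, the virus tether tetherin, at 0.36. With a pseudocount of 10 the list's median was 0.01, beside 0.10 over all genes.

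Immediate early genes of the AP-1 and EGR families follow growth factor signalling through ERK within minutes. Their list, which also held ERK pathway inhibitors such as SPRY4 and SPRED2, was below 0 in 21 of 26 genes. In it 7 were lower by 0.5 and none higher, with a median of -0.21 (GC-adjusted -0.19). Among all 11135 genes, 5369 were below 0, 3.91% lower by 0.5 and 4.25% higher, with a median of 0.01. JUNB had 37.6 in pool 1 and 19.9 in pool 2, a difference of -0.55 (GC-adjusted -0.26), and the ERK pathway inhibitors SPRY4 and SPRED2 had 50.7 and 26.7, and 45.7 and 24.2. DUSP6, the phosphatase that inactivates ERK, had 206 and 119, a difference of -0.46. SPRY2, a relative of SPRY4, was at 0.12, and CYR61, a matricellular protein, at 0.40. The list's median was -0.36 with a pseudocount of 0.1, beside -0.01 over all genes. With a pseudocount of 10 it was 0.00 to 2 decimals, beside 0.10 over all genes.

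The ATF4 response, which answers amino acid shortage, was lower by less. Of 39 compared, 29 were below 0, with 6 lower and 1 higher by 0.5 and a median of -0.11 (GC-adjusted -0.13). Among all 11135 genes, 5369 were below 0, 3.91% lower by 0.5 and 4.25% higher, with a median of 0.01. CHAC1, which degrades glutathione, had 15.0 and 6.10, a difference of -0.84, and its other row was at -1.37. The amino acid transporters SLC7A5 and SLC7A1 were at -0.56 and -0.52, and the cystine transporter SLC7A11, with 2.84 and 0.707, was at -0.84. Transfer RNA synthetases and serine synthesis enzymes of the list lay nearer 0, from -0.22 for WARS to 0.19 for SARS. ATF4 itself had 565 and 431, a difference of -0.06.

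Chaperones of the endoplasmic reticulum lay on the other side of 0. Unfolded protein response genes numbered 30, of which 24 were above 0, none by 0.5, and the median was 0.12 (GC-adjusted 0.13), but with no centring it was -0.22. Among all 11135 genes, 5766 were above 0, 4.25% by 0.5, with a median of 0.01, or -0.32 with no centring. CALR, the calcium-binding chaperone calreticulin, had 1753 in pool 1 and 1745 in pool 2, a difference of 0.33. OS9 and SEL1L, which recognise misfolded proteins for export from the endoplasmic reticulum, were at 0.46 and 0.42. DERL3, another export factor, was at -0.41.

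Genes of G2 and mitosis and genes of DNA repair lay above 0 before GC adjustment and near 0 after it. Among all 11135 genes, 5766 were above 0, with a median of 0.01, also 0.01 on adjustment, and -0.32 with no centring. In G2 and mitosis, 29 of 36 were above 0, with a median of 0.10 that became 0.03 on adjustment and -0.23 with no centring. MKI67, the proliferation antigen, had 34.4 and 27.9, a difference of 0.04, while PLK1 was at -0.41 and the 3 rows of BIRC5 at -0.43, -0.31 and -0.14. In DNA repair, 27 of 38 were above 0, with a median of 0.11 that became 0.03, and -0.22 with no centring. XRCC3, which acts in homologous recombination, was the lowest at -0.50 (GC-adjusted -0.28), and PMS1, a mismatch repair protein, was at 0.43.

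Large housekeeping groups lay near 0. The 79 cytosolic ribosomal protein genes had a median of 0.05, the 76 mitochondrial ones 0.00, the 76 subunits of the respiratory chain and ATP synthase 0.01 and the 34 proteasome subunits 0.04. Among NRF2 response genes and aldo-keto reductases, the median of 26 was -0.05, and AKR1C1, AKR1C2 and AKR1C3, steroid-metabolising enzymes of near-identical sequence, were higher in pool 2 at 0.67, 1.03 and 0.70, with one row of AKR1C2 at 0.34 and reads that could be shared between them. Matrix genes had a median of 0.04 over 35, with VCAN far above at 2.40 and COL6A2 lowest at -0.78 (GC-adjusted -0.49).

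**Figure D4:**
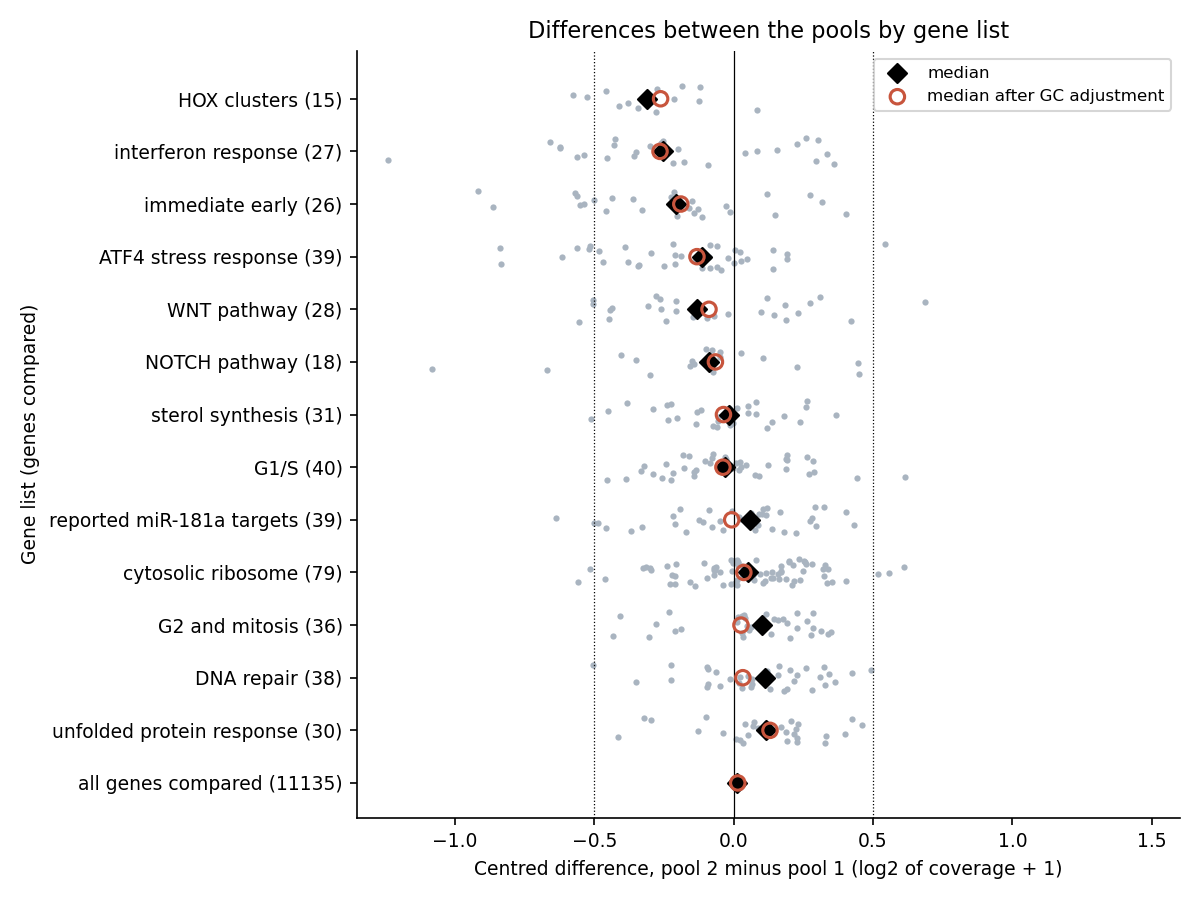
Centred difference of each compared gene (grey) by gene list, with the list's median (black diamond) and its median after GC adjustment (red circle), and in brackets the number of genes. The HOX, interferon and immediate early medians lie from -0.31 to -0.21, and the unfolded protein response at 0.12, which without centring is -0.22.

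Reported miR-181a targets did not part the pools as a group. The list holds 47 genes reported as targets in other work, named from general knowledge. Of these, 39 could be compared, 22 above 0 and 17 below, beside 5766 and 5369 over all genes. The 39 had a median of 0.06 (GC-adjusted -0.01). Just 2 were lower by 0.5, PRAP1 at low coverage (-0.64, GC-adjusted -0.41) and KLF6, and none was higher by 0.5. KLF6, a zinc finger factor, had 27.9 in pool 1 and 15.2 in pool 2, a difference of -0.50 with its other row at -0.27. DUSP6 is described above. SIRT1, a deacetylase, was at 0.40 and INPP5A, an inositol phosphatase, at 0.43. SMAD7 itself had 1.87 in pool 1 and 1.56 in pool 2, a difference of 0.16 near the median of its coverage band, 0.14. Levels of miR-181a were not analysed here, and NR6A1, which overlaps the locus of chromosome 9 on the other strand, had 11.9 and 8.40, a difference of -0.12.

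Matches to the seed were counted in the 3 prime UTRs of 10953 genes. The 8-base match TGAATGTA was found in 767 of them (7.003%), the 7-base matches TGAATGT and GAATGTA, which lie within it, in 21.5% and 15.5%, and the 6-base GAATGT, which lies within all 3, in 40.1%, on the sense strand alone. Genes with the 8-base match had a median of 0.01, those whose best match was 7 bases 0.03, those with 6 bases 0.02 and the 6565 with none 0.00. Genes with the 8-base match were lower by 0.5 in 6.13% and higher in 3.91%, and genes with no match in 4.17% and 4.08%. With the protocadherin alpha genes left out, since 13 of them share one site, 41 of 754 genes (5.44%) were lower. The UTRs of all 767 genes with the 8-base match were also longer, with a median of 3313 bases against 719 with none. Their whole transcripts were poorer in GC, with a median of 41.7% against 52.9%. GC content of the UTR alone was not measured. After GC adjustment the medians were -0.04 with the 8-base match and 0.03 with none, both small beside the spread of single genes. Of the genes whose 8-base sites are printed above, EED was at 0.80 and CCNG1, a cyclin induced by p53, at 0.39. SPRY4, which has a further match, was at -0.57 and KLF6 at -0.50, and the protocadherin alpha cluster had a median of -0.44. DNAL1 and NR6A1, described above, also have an 8-base match, and were at -1.71 and -0.12. A match is a description of sequence and says nothing of binding in these cells.

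The clustered protocadherins stood out by position. These neural adhesion genes lie in alpha, beta and gamma clusters on chromosome 5, where each alpha or gamma gene joins its own first exon to shared last exons. Among runs of 25 neighbouring genes, of which 10473 were compared, the lowest median was -0.39 (GC-adjusted -0.42), from EIF4EBP3 to PCDHAC1 (chromosome 5, 139927247 to 140391932), where the 1st and 99th percentiles of all runs were -0.27 and 0.21. Among all 11135 genes, 5369 were below 0, with a median of 0.01. In the alpha cluster 15 of 15 genes were below 0 with a median of -0.44, and in the gamma cluster 22 of 22 with a median of -0.31. Those counts rest on 9 and 6 distinct pairs of values, since many rows carry the coverage of the shared exons: PCDHA1, PCDHA3, PCDHA5 and 4 others all list 7.33 in pool 1 and 3.39 in pool 2. Coverage of the alpha genes was low, from 5.06 to 7.33 in pool 1 and from 2.60 to 3.49 in pool 2. In genes with a mean of 3 to 10, the 16th and 84th percentiles lay 0.31 either side of their midpoint. A second row of PCDHA5 was at 0.04. The beta genes, which have single exons and 14 distinct values, were below 0 in 13 of 14, with a median of -0.19 (GC-adjusted -0.24) and a range from -0.35 for PCDHB11 to 0.02 for PCDHB16. They are similar in sequence, so reads could be shared between them too. With equal pairs of values counted once, the lowest run lay instead on chromosome 19 from DPP9 to PSPN at -0.33, and -0.11 after GC adjustment. By adjusted values counted once, the lowest was again on chromosome 5, from HARS2 to PCDHB15, at -0.31.

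**Figure D5:**
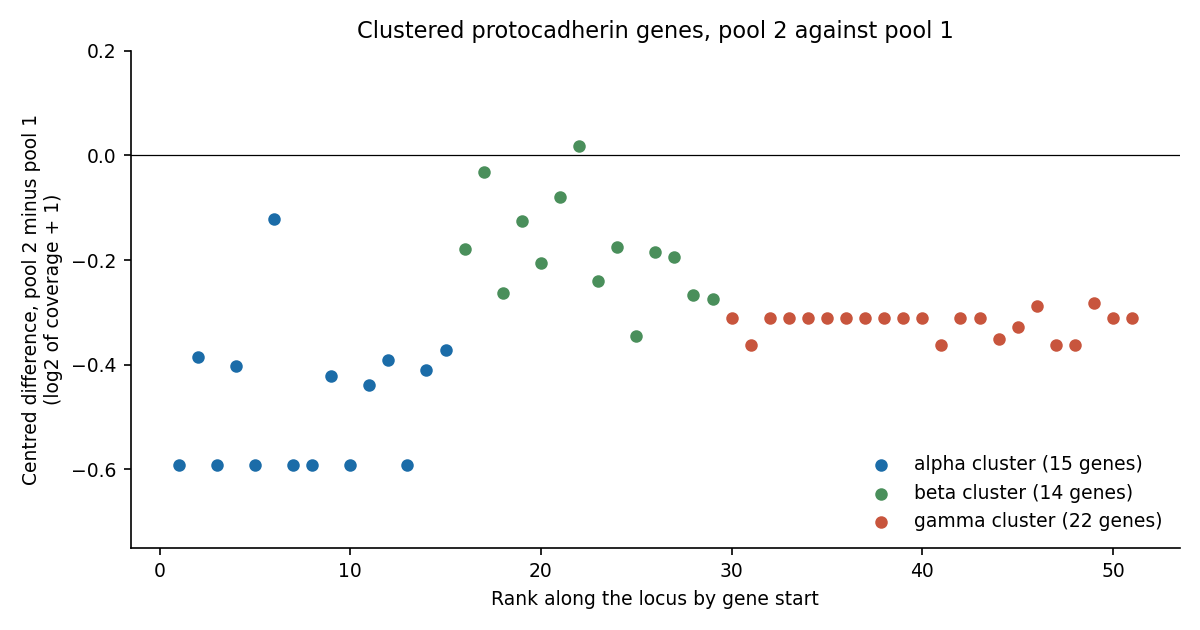
Centred difference of 51 clustered protocadherin genes in order of gene start, coloured by cluster. The alpha and gamma genes lie below 0, many at one repeated value set by shared exons, and 13 of 14 beta genes lie below 0. Among all 11135 genes, 5369 were below 0.

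By chromosome, medians lay between -0.12 and 0.06, and between -0.02 and 0.07 after GC adjustment. Chromosome 19 had the lowest median, -0.12 over 871 genes, followed by 22 at -0.10 and 16 at -0.06, and chromosome 18 the highest at 0.06. After GC adjustment those 4 were at 0.01, -0.02, 0.01 and 0.02. The highest run, from IKBKAP to WDR31 on chromosome 9, had a median of 0.26 (GC-adjusted 0.18), with UGCG, which makes glucosylceramide, at 0.56 and C9orf6 at 0.79. By adjusted values the highest run was one on chromosome 19, from RPL18 to PPFIA3, at 0.29, which before adjustment stood at 0.04.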

How the data were processed

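Poly-A RNA from 3 A2780 cultures (1 vector, 2 miR-181a pools, 1 library each) was sequenced on an Illumina instrument. Reads were mapped to hg19, per the submitters' processing notes. Per the labels' protocols, the deposited signal is the authors' median coverage over 50 bp windows along each gene. The sources used here do not give the aligner or the annotation. Log transformation and quantile normalization are named in the labels, but the columns are linear with different quantiles, so no common scale was assumed. Other columns of the table were not used.

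Of 29156 rows, 54 had symbols turned into dates, restored by accession, and 29093 matched a RefSeq gene. Rows with a pool mean of at least 1 were compared as log2(coverage + 1), pool 2 minus pool 1, minus the median over rows with a mean above 50. Positions, GC content (98.5% of genes) and 3 prime UTRs were read from GENCODE annotation lifted to GRCh37, which is the hg19 assembly. Calculations used Python 3.11.15, pandas 2.3.3 and numpy 2.4.6, tested on simulated data.

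Named genes are the 12 highest and 12 lowest with a mean of at least 10, the 3 highest at 0 in the other pool, the 5 of highest coverage, SMAD7, mir-181 hosts, up to 3 per list (40 lists) and 5 per extreme run; others are named as chosen after their values were seen or as list members. Members and lists were chosen with earlier results of these data known. Alternatives covered pseudocount, filter, scaling, row choice and size rule; GC adjustment, scaling before the logarithm, counting equal values once and leaving out the protocadherin alpha genes were added after seeing the data.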

Additional observations from a re-analysis of the deposited data

How the results depend on the processing

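Counts of genes and rows past 1 log2 unit moved with the settings, while no gene named by the rule and past 1 unit changed sign under any alternative. With a pseudocount of 0.1, 91 genes were higher and 80 lower (164 and 122 rows), and with a pseudocount of 10, 4 and 1 (7 and 1 rows). With no filter 99 genes and 167 rows were higher, and with a mean of at least 10, 5 genes were higher and 4 lower (7 and 7 rows). With no centring 20 genes were higher and 136 lower (41 and 208 rows). With equal sums 32 genes and 44 rows were lower, and with pool 2 divided before the logarithm, an alternative added after seeing the data, 32 genes were lower. At 0.5 unit 473 genes were higher and 435 lower (777 and 653 rows), and at 2 units 10 and 1 (18 and 1 rows). The second row of a gene gave 24 higher and 7 lower, with fewer genes compared. Of the 47 and 20 genes, 43 and 16 stayed past 1 unit after GC adjustment. The median with an 8-base seed match minus that without a 7- or 8-base match was 0.01, and -0.07 after GC adjustment. List medians past 0.1 from 0 changed sign in 7 of 15 lists with no centring (epithelial, G2 and mitosis, unfolded protein response, DNA repair, hypoxia, neural and metallothionein), in 3 with a pseudocount of 10 (interferon, WNT and ovarian lineage) and in 1 with no filter (ovarian lineage). The 18 ovarian markers gave too few genes with a mean of at least 10 for a value. No paired analysis was possible because each group has 1 library and the pools' numbers name cultures. Depth is unknown, so no counting error can be given for the differences of genes of low coverage. With 1 library a side, the cultures cannot be separated from their libraries.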
